A study of Homo sapiens with 6 samples.

Results

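Cholesterol and fatty acid synthesis was followed through 31 genes in the human embryonic stem cell line H1, an established line. The genes were taken from a list of symbols, chosen with earlier results of these data known, and mapped to Ensembl gene IDs. All 31 matched 1 ID each among the 60499 IDs of the deposited count table, and all 31 passed the filter on low counts that left 17608 genes for testing. The cells were grown for 4 days in NutriStem medium on laminin-521 alone (LN-521) or on laminin-521 together with laminin-221 (LN-521+LN-221). The genotype and medium were the same in both groups, and both coatings contained laminin-521. Laminins are basement membrane proteins to which the cells attach through integrins. Each coating had 3 wells, and the total RNA of each well was sequenced as a separate library. As all wells came from 1 cell line, the p-values measure the spread between wells.

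Cholesterol is built from acetyl-CoA through mevalonate, isoprenoids, squalene and a series of sterols. Fatty acid synthesis draws on the same cytosolic acetyl-CoA. Transcription of both sets of enzymes is driven by the sterol regulatory element-binding proteins (SREBPs), the products of SREBF1 and SREBF2. These membrane proteins are escorted by SCAP from the endoplasmic reticulum to the Golgi to be cleaved, and INSIG proteins hold them back when sterols are plentiful. Proliferating stem cells use both pathways to make membranes.

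Total estimated counts per library were between 20606450 and 26836686. The 7SL RNA family made up between 4.53% and 6.13% of each library's counts and between 30.1% and 37.3% of its TPM, both highest in LN-521 well 2. The labelled cell type was checked against marker genes. The 7 pluripotent stem cell markers, all expressed, together reached 9550 to 9800 CPM on LN-521 and 9730 to 9970 CPM on LN-521+LN-221. Among them, NANOG (-0.73) and POU5F1 (-0.36) fell and LIN28A (0.23) rose on LN-521+LN-221 on the log2 scale (edgeR adjusted p = 0.000165, 0.00366 and 0.00737). The marker lists of mesoderm, endoderm and hepatocytes each summed to at most 1.31 CPM in any library. Of the neural list, NES and TUBB3, which stem cells also express, held nearly all of 593 to 677 CPM. Of 5 fibroblast markers, COL1A1 and THY1 were expressed, LUM was listed at 0 in all 6 libraries, and COL3A1 and DCN had at most 9 counts. The fibroblast list summed to 239 to 268 CPM on LN-521 and 208 to 213 CPM on LN-521+LN-221, and THY1 fell by 0.38 on the log2 scale (edgeR adjusted p = 0.0146). The part of these markers in the lipid gene results was not tested.

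Expression was compared with edgeR's quasi-likelihood test on all genes, with Benjamini-Hochberg adjustment over the 17608 genes and a threshold of 0.05. Values are counts scaled to library size (CPM), and a negative log2 fold change means lower expression with laminin-221. Of the 31 genes, 4 fell and none rose on LN-521+LN-221. The 4 were SREBF2, SCD, ACAT2 and FDPS. FDPS fell by 14.1%, ACAT2 fell by 18.1%, and SREBF2 and SCD each fell by slightly more. They made up 12.9% of the members, whereas 2.53% of all genes tested were called, 1.4% higher and 1.14% lower. Among the 11352 genes expressed at least as highly as the lowest member, 3.31% were called and 1.56% were called lower. Expression per well did not overlap between the coatings for 10 of the 31 genes (32.3%), against 19.9% of all genes and 21.9% of those expressed as highly. Of the 10, 7 had lower values on LN-521+LN-221 (22.6% of the members, against 9.68% of all genes) and 3 higher ones, where 10.2% of all genes had higher values without overlap. An unadjusted p under 0.05 was reached by 8 members with lower and 2 with higher expression, where 14.5% of all genes reached it. The median log2 fold change of the 31 genes was -0.03, beside 0.00 for all genes (-0.0011), and 19 of the 31 values (61.3%) were negative, beside 50.3% of all genes. Leaving out 1 library put the members median log2 fold change between -0.0539, without LN-521+LN-221 replicate 2, and -0.0029, without LN-521 replicate 1. With DESeq2, which called 526 of all genes, 5 members were called lower and none higher, and with limma on log2(TPM + 1), which called 33 of all genes, no member was called. The count also moved with single libraries. It was 8, 4 and 1 without LN-521 replicates 1, 2 and 3, and 2, 1 and 0 without LN-521+LN-221 replicates 1, 2 and 3. In the same fits the number of all genes called was 1179, 635 and 201, and 290, 198 and 194. In whole-well RNA, fewer expressing cells and less RNA per cell cannot be told apart.

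**Figure D1:**
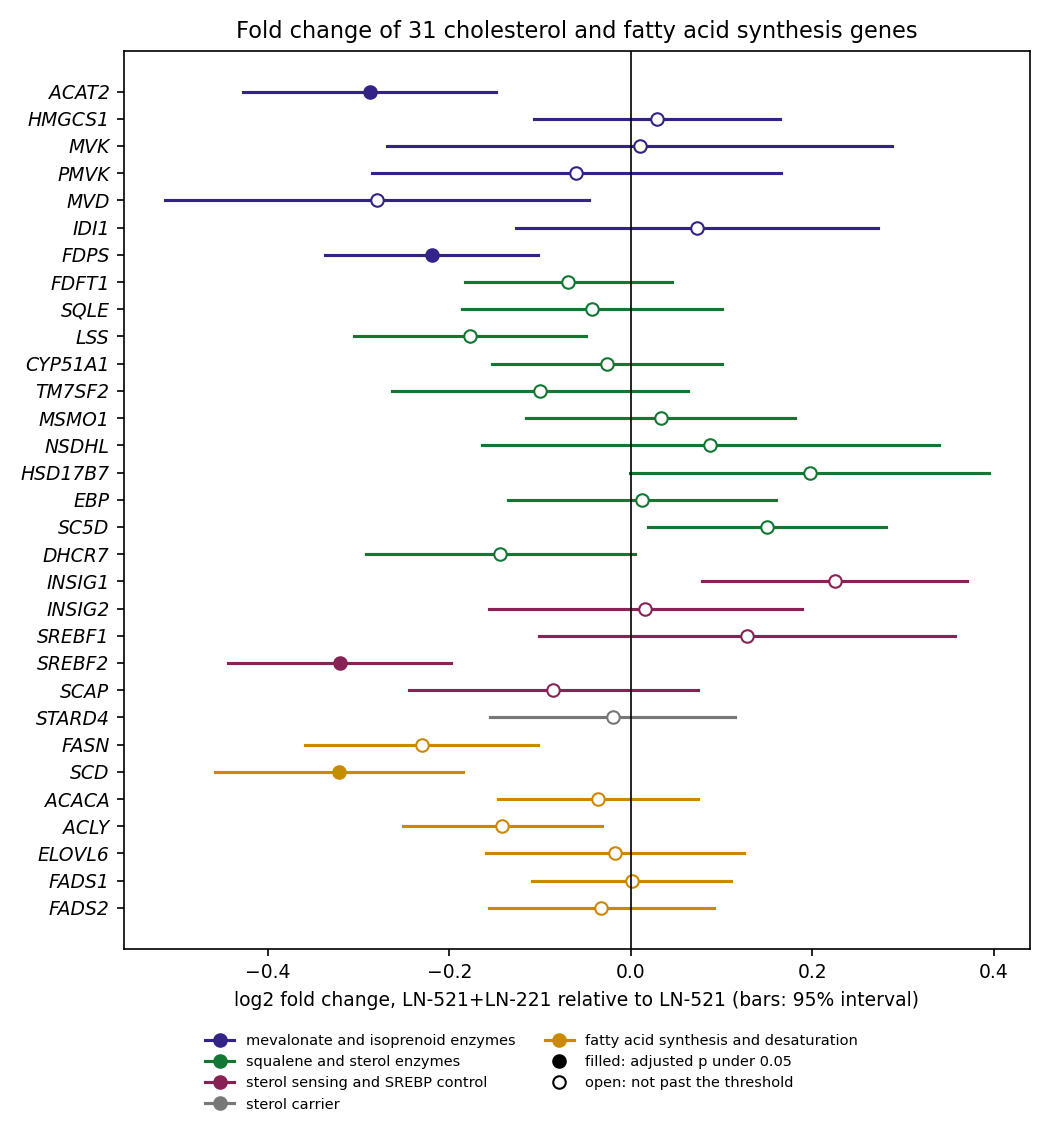
Log2 fold change of each of the 31 genes on LN-521+LN-221 against LN-521 (x axis), in order of role (y axis), with 95% intervals as bars. Filled points are the 4 genes past the threshold, ACAT2, FDPS, SREBF2 and SCD, and no gene above 0 is filled.

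The regulators of the pathway come first. SREBF2 encodes SREBP-2, the isoform that mainly drives cholesterol genes and uptake. It lies on chromosome 22, at chr22:41833079-41907308 on the plus strand (GRCh38, GENCODE 29). SREBF2 was at 175, 166 and 159 CPM in LN-521 wells 1 to 3 and at 139.9, 134.5 and 126.3 CPM in LN-521+LN-221 wells 1 to 3. All 3 wells with laminin-221 were below all 3 without it. The log2 fold change was -0.32 ± 0.06 (SE; adjusted p by edgeR = 0.00446), so that expression fell by 19.9%. This was the smallest adjusted p among the 31 genes. Without LN-521+LN-221 replicate 3 the adjusted p was 0.0601, and without any other single library it was at most 0.0448. The exons of SREBF2 overlap the antisense transcript SREBF2-AS1, which had 17 to 36 counts per library.

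The other regulators did not pass the threshold. SREBF1 encodes SREBP-1, whose 1c form mainly drives fatty acid genes. It was at 28.0, 36.05 and 26.05 CPM on LN-521 and at 30.8, 31.8 and 35.9 CPM on LN-521+LN-221. The wells of the coatings overlapped, and the log2 fold change was 0.13 with a 95% interval of -0.10 to 0.36 (edgeR adjusted p = 0.646). The value of SREBF1 was 0.29 without LN-521 replicate 2 (edgeR adjusted p = 0.0613), 0.03 without LN-521 replicate 3 and 0.26 on log2(TPM + 1). INSIG1, itself a well-known SREBP target, was at 31.3, 29.9 and 30.0 CPM on LN-521 and at 35.1, 35.4 and 36.0 CPM on LN-521+LN-221. The wells did not overlap and the log2 fold change of 0.22 ± 0.07 (SE) was the highest of the 31, yet the adjusted p was 0.110 (edgeR). With a correction for GC content it was 0.0241, and without LN-521 replicate 1 it was 0.0421. INSIG2, the paralog of INSIG1, had a log2 fold change of 0.02, and SCAP, the escort protein, one of -0.09. The wells of SCAP and, further on, of MVD were chosen to be given after their values were seen. SCAP was at 105, 135 and 127 CPM on LN-521 and at 112, 117 and 118 CPM on LN-521+LN-221, so that LN-521 well 1 lay below all the others. Without LN-521 replicate 1 its log2 fold change was -0.18 (edgeR adjusted p = 0.0387), and with TPM values it was 0.13 (limma adjusted p = 0.819).

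Promoter sequences of members that changed, and of INSIG1 for contrast, are shown because SREBPs act at promoters together with the factor NF-Y, which binds CCAAT boxes. Of the 31 members, 27 had an entry in the RefSeq promoter table (GRCh38.p14), and ACAT2, FDFT1, SQLE and FASN had none. Each window holds the 250 bases before the annotated start, 5′ to 3′ on the gene's strand. Capitals mark matches on either strand to the sterol regulatory element letters TCACNCCAC and to CCAAT, which reads ATTGG when it lies on the other strand. The windows are chr22:41832855-41833104 (plus strand) for SREBF2, chr10:100346983-100347232 (plus strand) for SCD, chr1:155308616-155308865 (plus strand) for FDPS and chr7:155297628-155297877 (plus strand) for INSIG1. The GENCODE 29 spans of these 4 genes begin inside the windows, since the 2 annotations place the first start differently.
SREBF2: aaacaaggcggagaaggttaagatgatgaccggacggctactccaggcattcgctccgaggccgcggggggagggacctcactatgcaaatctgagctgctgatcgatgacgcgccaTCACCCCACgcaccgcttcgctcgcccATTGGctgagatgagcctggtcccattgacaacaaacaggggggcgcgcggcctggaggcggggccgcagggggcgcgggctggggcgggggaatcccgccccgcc
SCD: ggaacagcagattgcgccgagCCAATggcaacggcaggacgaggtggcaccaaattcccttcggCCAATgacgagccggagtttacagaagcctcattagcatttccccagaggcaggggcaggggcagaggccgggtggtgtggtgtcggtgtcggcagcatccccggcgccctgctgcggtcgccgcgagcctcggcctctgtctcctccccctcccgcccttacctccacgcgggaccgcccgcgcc
FDPS: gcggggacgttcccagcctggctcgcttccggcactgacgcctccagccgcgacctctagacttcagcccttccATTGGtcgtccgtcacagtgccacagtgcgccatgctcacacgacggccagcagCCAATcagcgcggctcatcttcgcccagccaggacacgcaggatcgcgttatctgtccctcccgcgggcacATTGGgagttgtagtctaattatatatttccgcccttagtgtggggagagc
INSIG1: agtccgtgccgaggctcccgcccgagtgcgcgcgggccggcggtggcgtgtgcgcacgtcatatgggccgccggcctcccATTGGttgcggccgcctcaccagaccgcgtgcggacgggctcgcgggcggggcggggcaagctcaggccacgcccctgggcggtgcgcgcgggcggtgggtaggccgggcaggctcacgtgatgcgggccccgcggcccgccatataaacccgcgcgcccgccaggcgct

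The SREBF2 window held TCACCCCAC with its first base 133 bases before the start and a CCAAT match 106 bases before it. It was the only 1 of the 27 members whose windows matched TCACNCCAC, which is 3.7% of them, beside 1.09% of the 27305 genes in the table. By window it was 2.7% of the 37 member windows, beside 0.883% of all 35116. For this element, only the letters TCACNCCAC were searched for, and only inside these windows. A missing match therefore does not show that a gene lacks a sterol regulatory element. SCD had CCAAT matches 229 and 186 bases before its start, FDPS had 3 at 176, 122 and 51 bases, and INSIG1 had 1 at 170 bases. At least 1 CCAAT match was found for 19 of the 27 members (70.4%), beside 37.0% of all genes. Some members have several annotated starts. Counted by window, 62.2% of the member windows and 32.0% of all windows held CCAAT. The GC box letters GGGCGG were found for 26 of the 27 members and for 46.2% of all genes. The 27305 genes include ones not expressed here, whereas all members were expressed. Motif shares among expressed genes alone are not given, so the differences cannot be tied to these pathways. HMGCS1, MSMO1 and STARD4, which were not called, had CCAAT matches too.

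Of the 7 fatty acid genes, 1 was called (14.3%, beside 2.53% of all genes). It was SCD, which was lower on LN-521+LN-221. SCD encodes stearoyl-CoA desaturase, which makes the monounsaturated fatty acids oleate and palmitoleate, and lies at chr10:100347124-100364834 on the plus strand. SCD was at 772, 637 and 736 CPM on LN-521 and at 598, 574 and 545 CPM on LN-521+LN-221. The lowest LN-521 well, well 2, was still above the highest well with laminin-221. SCD fell by 0.32 ± 0.06 on the log2 scale (SE; adjusted p by edgeR = 0.00955). GENCODE names 1 SCD pseudogene, and the SCD count was not whole in 1 library. FASN, the multifunctional enzyme that makes palmitate, was at 547, 642 and 572 CPM on LN-521 and at 483, 492.5 and 526 CPM on LN-521+LN-221. Its wells did not overlap either, but the log2 fold change of -0.23 ± 0.06 (SE) missed the threshold (edgeR adjusted p = 0.0544). FASN passed in 9 of the 14 alternatives that used every library. With DESeq2 its adjusted p was 0.0168 and without LN-521 replicate 1 it was 0.00192 (edgeR), while without LN-521+LN-221 replicate 2 it was 0.294.

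ACLY, ATP citrate lyase, supplies cytosolic acetyl-CoA to both pathways. It was at 464, 461 and 424 CPM on LN-521 and at 407, 405 and 411 CPM on LN-521+LN-221. The wells did not overlap, and the log2 fold change was -0.14 ± 0.05 (SE; adjusted p by edgeR = 0.197). ACACA, acetyl-CoA carboxylase, which commits acetyl-CoA to fatty acid synthesis, had a log2 fold change of -0.04 with a 95% interval of -0.15 to 0.07. ELOVL6, which elongates palmitate, had one of -0.02 (-0.16 to 0.12). FADS1 and FADS2, the desaturases of polyunsaturated fatty acids, had values of 0.00 (0.0009, interval -0.11 to 0.11) and -0.03 (-0.16 to 0.09). FADS1 and FADS2 lie on opposite strands and share exon sequence, and the strand setting of the counting is not stated, so their counts may not be separate.

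Summed over the 7 fatty acid genes, expression was 2453, 2412 and 2423 CPM on LN-521 and 2144, 2140 and 2156 CPM on LN-521+LN-221. The groups of wells did not overlap, and SCD, FASN and ACLY made up nearly all of the difference. On the length-corrected scale the sums overlapped, at 472, 396 and 424 TPM on LN-521 and 418, 405 and 387 TPM on LN-521+LN-221. The 7SL family took 30.1%, 37.3% and 33.9% of the TPM in LN-521 wells 1 to 3. In LN-521+LN-221 wells 1 to 3 it took 31.1%, 32.0% and 32.9%. The part of 7SL in the overlap of the TPM sums was not tested. The 18 cholesterol enzymes summed to 1243, 1185 and 1216 CPM on LN-521 and to 1137, 1187 and 1156 CPM on LN-521+LN-221, which overlapped by well.

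**Figure D2:**
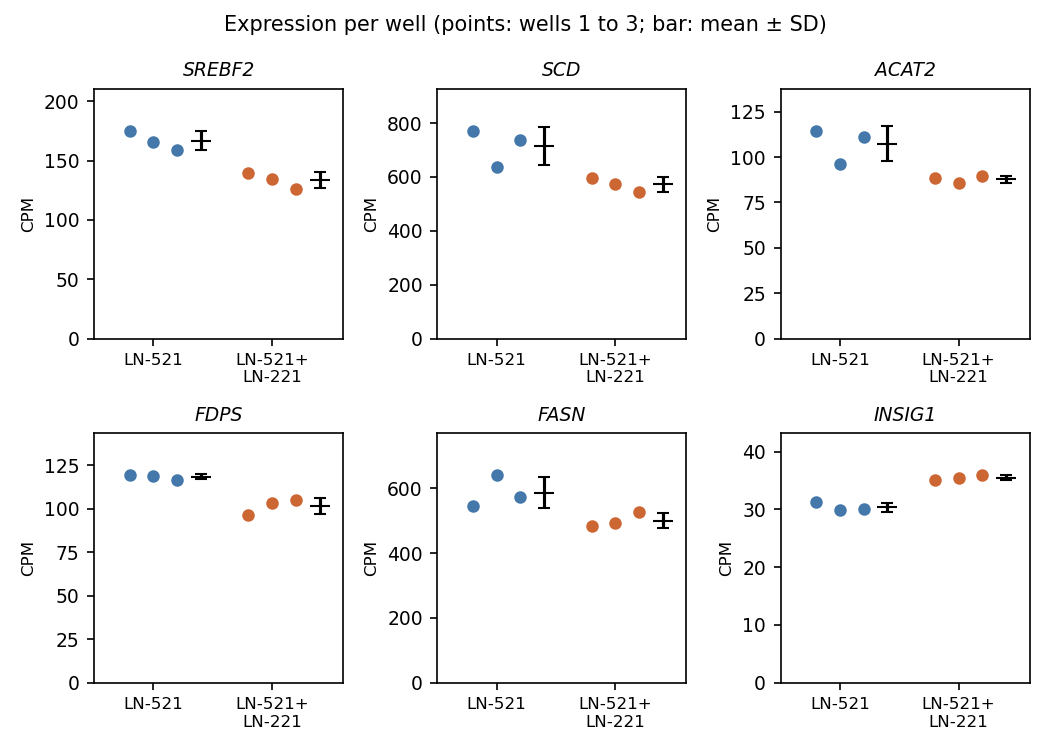
CPM per well (y axis, from 0) on each coating (x axis) for SREBF2, SCD, ACAT2, FDPS, FASN and INSIG1, with the mean and SD of 3 wells as a bar beside the points. The wells of the coatings do not overlap in any of the 6 panels, and INSIG1 is the gene with higher values on LN-521+LN-221.

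The mevalonate steps of the cholesterol pathway held the other falls. ACAT2 encodes cytosolic acetyl-CoA acetyltransferase, which condenses acetyl-CoA in the first step, and lies at chr6:159760328-159779055 on the plus strand. ACAT2 was at 115, 96.3 and 111 CPM on LN-521 and at 88.5, 85.7 and 89.3 CPM on LN-521+LN-221. The 3 wells with laminin-221 lay close together below the lowest LN-521 well, and the log2 fold change was -0.29 ± 0.07 (SE; adjusted p by edgeR = 0.0241). Its exons overlap SOD2, SOD2-OT1 and TCP1 on the other strand, and since the strand setting of the counting is not stated, their counts may not be separate. TCP1 had 5413 to 6621 counts per library and a log2 fold change of 0.05 (edgeR adjusted p = 0.718). FDPS encodes farnesyl diphosphate synthase, the enzyme at the branch between sterols and other isoprenoids, and lies at chr1:155308748-155320666 on the plus strand. FDPS was at 119.5, 118.7 and 116.8 CPM on LN-521 and at 96.5, 103.5 and 104.9 CPM on LN-521+LN-221. The LN-521 wells were nearly equal, and the log2 fold change was -0.22 ± 0.06 (SE; adjusted p by edgeR = 0.0446). With a correction for transcript length the log2 fold change of FDPS was -0.20 (edgeR adjusted p = 0.0616), and with that correction and the replicate block it was -0.20 (edgeR adjusted p = 0.0467). GENCODE names 8 FDPS pseudogenes, and the FDPS counts were whole numbers in all 6 libraries.

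Several of these calls were lost when single libraries were left out. ACAT2 was called without LN-521 replicate 1 or 2, and its adjusted p was 0.157 without LN-521 replicate 3 and 0.106, 0.187 and 0.0966 without LN-521+LN-221 replicates 1, 2 and 3 (edgeR). FDPS was called in the same 2 fits, and its adjusted p in the other 4 was 0.147, 0.273, 0.199 and 0.124 (edgeR). SCD was called in 3 of the 6 fits, and its adjusted p was 0.0846 without LN-521 replicate 3 and 0.0804 and 0.0819 without LN-521+LN-221 replicates 2 and 3 (edgeR). The log2 fold changes over the 6 fits were -0.36 to -0.24 for ACAT2, -0.24 to -0.18 for FDPS and -0.40 to -0.26 for SCD, on either side of the values from all libraries.

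The other 5 mevalonate and isoprenoid enzymes were not called by edgeR, and 1 of them, MVD, had an unadjusted p under 0.05. HMGCS1, which makes HMG-CoA, was at 134.9, 113.8 and 117 CPM on LN-521 and at 122.5, 126.6 and 123.8 CPM on LN-521+LN-221. The wells with laminin-221 lay inside the range of the LN-521 wells, and the 95% interval of the log2 fold change was -0.11 to 0.16 (edgeR adjusted p = 0.885). MVK and PMVK, the kinases that phosphorylate mevalonate and then phosphomevalonate, had log2 fold changes of 0.01 and -0.06, and IDI1, the isopentenyl diphosphate isomerase, one of 0.07. MVD, which makes isopentenyl diphosphate, had one of -0.28 ± 0.11 (SE; adjusted p by edgeR = 0.241). MVD was at 23.1, 33.4 and 29.8 CPM on LN-521 and at 24.0, 22.4 and 24.8 CPM on LN-521+LN-221, so that LN-521 well 1 lay among the wells with laminin-221. Without LN-521 replicate 1 the log2 fold change of MVD was -0.41 (edgeR adjusted p = 0.00256). With no filter on low counts it was -0.29 (edgeR adjusted p = 0.0411), and 6 members and 718 of all genes were then called, the members all lower. MVK shares exon sequence with MMAB on the other strand, which had 238 to 290 counts per library.

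None of the 11 enzymes from squalene onward was called, where 2.53% of all genes were. An unadjusted p under 0.05 was reached by 2 of the 11, LSS with a negative and SC5D with a positive value (edgeR). Of all genes, 14.5% reached it. With DESeq2 none of the 11 was called either. FDFT1, squalene synthase, had a log2 fold change of -0.07 (95% interval -0.18 to 0.05). SQLE, squalene epoxidase, a rate-limiting step of sterol synthesis, was at 102, 89.3 and 91.5 CPM on LN-521 and at 92.1, 97.7 and 84.85 CPM on LN-521+LN-221. The wells overlapped, and the log2 fold change of SQLE was -0.04 (95% interval -0.19 to 0.10; edgeR adjusted p = 0.833). LSS, which closes squalene epoxide into lanosterol, was at 84.0, 92.3 and 89.1 CPM on LN-521 and at 81.7, 75.75 and 77.3 CPM on LN-521+LN-221. The wells of LSS did not overlap, with a log2 fold change of -0.18 ± 0.06 (SE; adjusted p by edgeR = 0.162). Without LN-521 replicate 1 its adjusted p was 0.0249 (edgeR).

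The later steps turn lanosterol into cholesterol. CYP51A1, the lanosterol demethylase, had a log2 fold change of -0.03, TM7SF2, a sterol reductase, one of -0.10, and MSMO1, the methylsterol oxidase, one of 0.03. NSDHL and HSD17B7, which remove the methyl groups with MSMO1, had values of 0.09 and 0.20. HSD17B7 had non-overlapping wells, at 12.6 to 14.45 CPM on LN-521 and 14.9 to 16.2 CPM on LN-521+LN-221 (edgeR adjusted p = 0.344). Its counts were not whole in any library and GENCODE names 2 pseudogenes, so reads may have been shared between copies. TM7SF2 shares exon sequence with VPS51 on the same strand. The CYP51A1 counts were not whole in 5 libraries. EBP, the sterol isomerase, had a value of 0.01 and DHCR7, which makes cholesterol from its immediate precursor, one of -0.14. SC5D, the sterol desaturase before DHCR7, was at 88.4, 78.5 and 89.9 CPM on LN-521 and at 94.5, 96.4 and 94.0 CPM on LN-521+LN-221. Its wells did not overlap, in the direction opposite to LSS, with a log2 fold change of 0.15 ± 0.06 (SE; adjusted p by edgeR = 0.264). STARD4, a carrier that moves cholesterol between membranes, had a log2 fold change of -0.02 (95% interval -0.16 to 0.12).

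**Figure D3:**
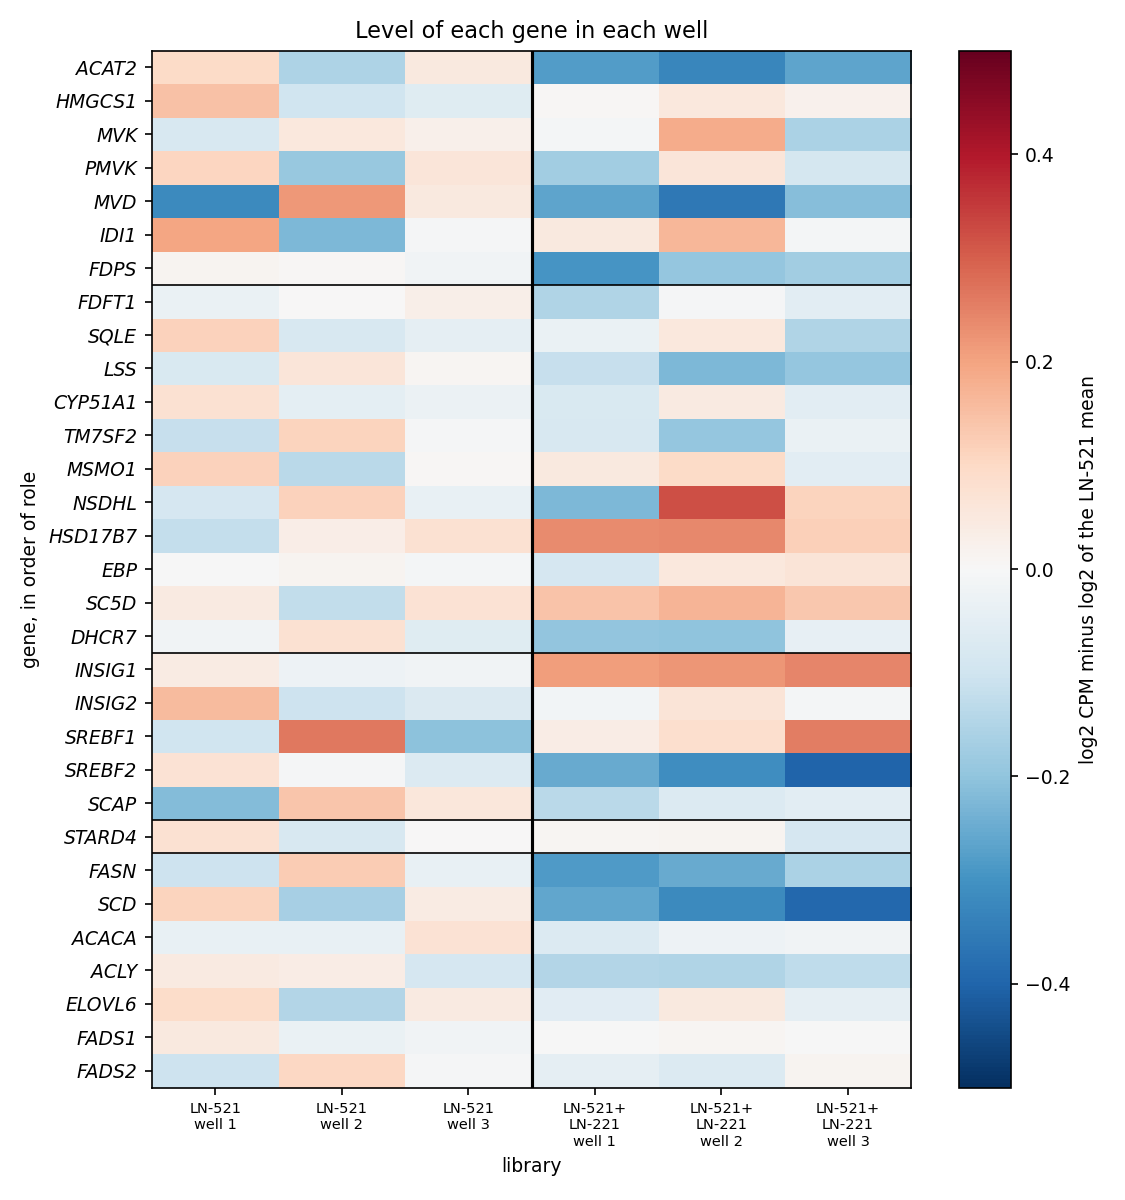
Level of each of the 31 genes (rows, in order of role) in each library (columns), as log2 CPM minus the log2 of the LN-521 mean, blue below and red above it. SREBF2, SCD, ACAT2, FDPS, FASN, ACLY and LSS are among the genes that are blue in all 3 wells with laminin-221. INSIG1, SC5D and HSD17B7 are among those that are red in all 3, and MVD, SCAP and SREBF1 differ among the LN-521 wells.

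Levels of different genes were compared on the length-corrected scale, in TPM. The highest mean level over the 6 libraries was that of FDFT1, at 101.7 TPM, followed by SCD at 99.5, FDPS at 97.9 and ACLY at 89.9 TPM. The ranges of these 4 over the libraries overlapped from each gene to the next, and their order differed between the coatings. On LN-521 the means were 109.5 TPM for SCD, 104.0 for FDPS and 102.6 for FDFT1, and on LN-521+LN-221 they were 100.8 TPM for FDFT1, 91.8 for FDPS and 89.55 for SCD. All 4 were above FADS2, which had at most 77.3 TPM and a mean of 71.3 TPM, and FASN, which had a mean of 67.5 TPM. The ranges of FADS2 and FASN overlapped, and both were above EBP, which followed. The other 25 genes had means from 45.6 TPM for EBP down to 2.84 TPM for MVK, and each overlapped its neighbour except NSDHL, at 6.42 TPM or more, and MVK, at 3.31 TPM or less. SREBF2 had a mean of 34.3 ± 3.79 TPM on LN-521 and 28.5 ± 1.57 TPM with laminin-221 added (SD, n = 3), and SREBF1 14.95 ± 1.86 and 18.0 ± 1.10 TPM (SD, n = 3).

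The wells of a coating also differed among themselves. The median coefficient of variation of the 31 genes was 7.22% among LN-521 wells and 4.56% among LN-521+LN-221 wells. The 11352 genes expressed at least as highly as the lowest member gave 6.92% and 4.41%. Within LN-521, well 1 held the highest value of 16 members and the lowest of 11, and well 2 the highest of 11 and the lowest of 14. The 16 members highest in well 1, among them SCD, ACAT2 and HMGCS1, had a median transcript GC content of 46.2%. The 11 lowest there, among them MVD, FASN and SCAP, had one of 58.3%. With a correction for GC content, 5 members were called lower (SREBF2, SCD, ACAT2, FDPS and FASN) and 1 higher (INSIG1), while the number of all genes called was 933 in place of 446.

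Other lipid genes were read from 7 lists chosen by role, with earlier results of these data known. They held 94 genes, of which 86 were tested. Of these, 3 rose and 1 fell (4.65% called, beside 2.53% of all genes). SOAT1, which esterifies cholesterol for storage in droplets, was at 7.62, 6.69 and 5.78 CPM on LN-521 and at 13.6, 14.4 and 15.04 CPM on LN-521+LN-221. Each well with laminin-221 was well above each well without it. SOAT1 rose by 1.10 ± 0.11 on the log2 scale (SE; adjusted p by edgeR = 1.83e-05), an increase of 115%, from 144 to 178 counts per library to between 282 and 356. It was called in all 14 alternatives that used every library and in all 6 fits that left 1 out.

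PLIN2, a coat protein of lipid droplets, was at 47.2, 47.0 and 44.5 CPM on LN-521 and at 53.8, 59.65 and 60.9 CPM on LN-521+LN-221. The wells did not overlap, and PLIN2 rose by 0.33 ± 0.07 (log2, SE; adjusted p by edgeR = 0.0101). DGAT2, which makes triglyceride, was at 13.55, 14.3 and 11.0 CPM on LN-521 and at 16.9, 17.67 and 17.65 CPM on LN-521+LN-221. The wells of DGAT2 did not overlap, and it rose by 0.42 ± 0.10 (log2, SE; adjusted p by edgeR = 0.0331). ELOVL4, which elongates very long fatty acids, was at 33.0, 27.9 and 29.6 CPM on LN-521 and at 24.5, 24.4 and 23.4 CPM on LN-521+LN-221, and fell by 0.32 ± 0.08 (log2, SE; adjusted p by edgeR = 0.0412). The wells of ELOVL4 did not overlap. PLIN2 was called in 3 of the 6 fits that left out a library, and its adjusted p was 0.0917 without LN-521 replicate 3 and 0.104 and 0.105 without LN-521+LN-221 replicates 2 and 3 (edgeR). DGAT2 was called in 2 of the 6, those without LN-521 replicate 1 or 2, with an adjusted p of 0.0934 to 0.205 in the others (edgeR). ELOVL4 was called in 1 of the 6, that without LN-521 replicate 2, with an adjusted p of 0.0525 to 0.208 in the others (edgeR). On the TPM scale PLIN2, DGAT2 and ELOVL4 kept their direction and were not called (limma).

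**Figure D4:**
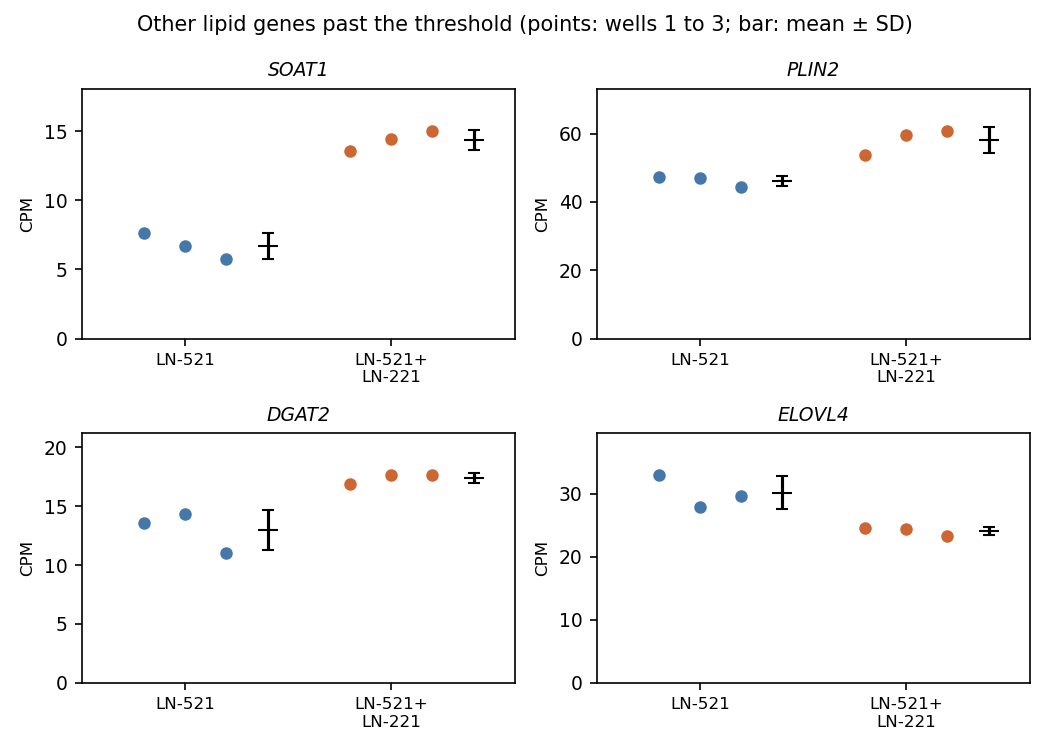
CPM per well (y axis, from 0) on each coating (x axis) for SOAT1, PLIN2, DGAT2 and ELOVL4, with the mean and SD of 3 wells as a bar. SOAT1, PLIN2 and DGAT2 are higher and ELOVL4 is lower on LN-521+LN-221, with no overlap of wells.

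In the 4 lists without these genes nothing was called with all libraries by the reported edgeR fit or by DESeq2. With the GC correction, and without LN-521 replicate 2, edgeR called 1 gene of the sterol efflux list. These were the isoprenoid branch (9 tested, 1 with an unadjusted p under 0.05), SREBP processing and sterol-regulated degradation (9 tested, 1), sterol efflux and LXR (8 tested, 2) and fatty acid oxidation (13 tested, 1), where 14.5% of all genes had such a p. The proteases that cleave SREBPs, MBTPS1 and MBTPS2, had log2 fold changes of 0.11 and -0.04. ABCG1, a sterol exporter, had one of 0.35 (edgeR adjusted p = 0.102). The median log2 fold change was 0.09 over the 13 glycerolipid genes, -0.05 over the 24 tested genes of acyl-CoA supply and elongation and -0.02 over the 10 tested genes of sterol storage and trafficking.

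**Figure D5:**
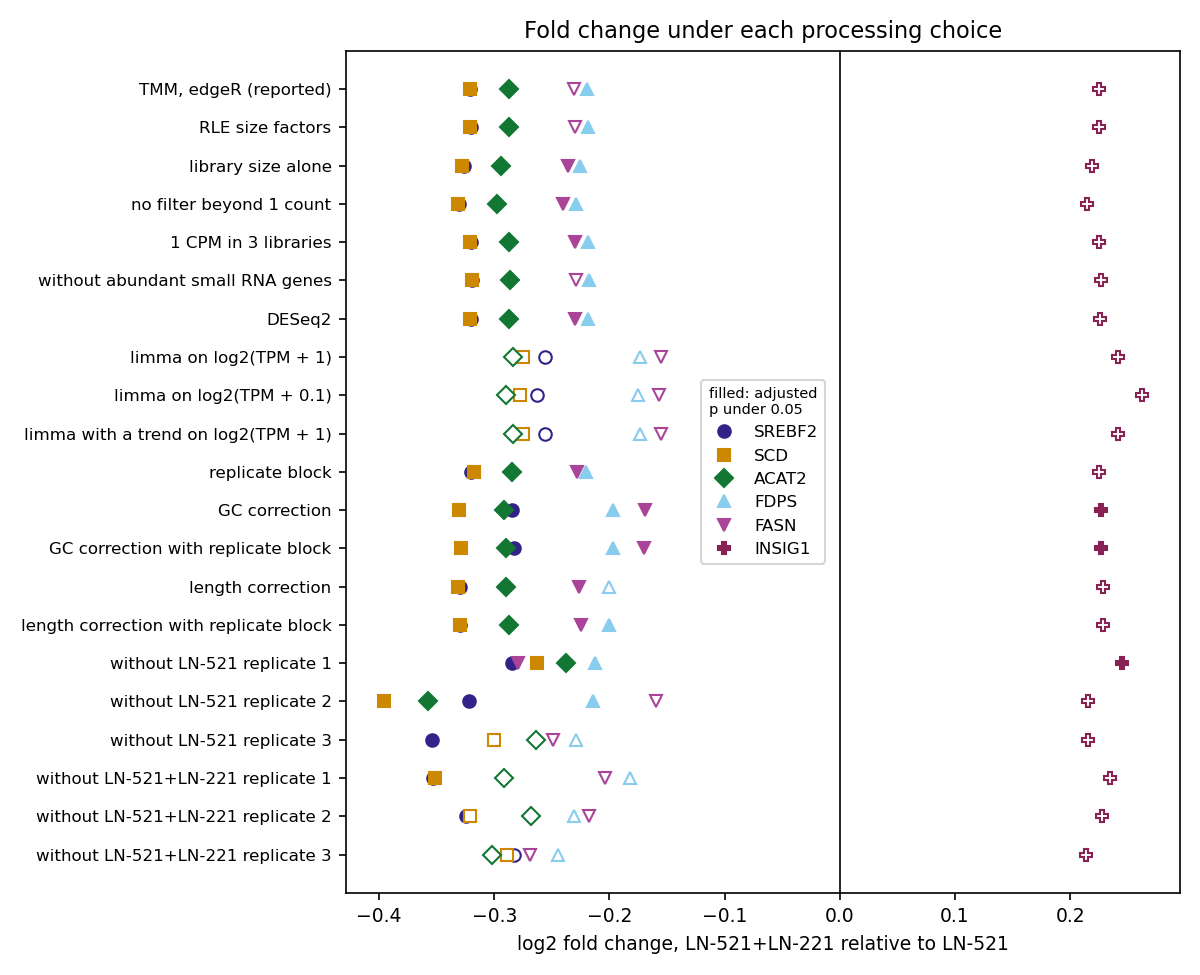
Log2 fold change on LN-521+LN-221 against LN-521 (x axis) of SREBF2, SCD, ACAT2, FDPS, FASN and INSIG1 under each processing choice (y axis), filled where the adjusted p was under 0.05. All points keep the side of 0 they have in the top line, and the points of the 3 lines that use TPM are open.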

How the data were processed

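Total RNA of 6 wells of H1 cells was sequenced, 3 per coating. The authors deposited a table of estimated counts and TPM (a transcript abundance corrected for length and depth) per gene. The submitters' processing notes name cutadapt, STAR 2.5.2b, RSEM 1.2.31 and hg38, with no roles. The gene annotation and the strand setting of the counting are not given in the sources used here. RSEM's estimated counts may divide reads between similar genes, and 6.08% to 6.67% of the values in each library were not whole.

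Each estimated count was rounded to a whole number. Genes were filtered with filterByExpr (minimum count 10), scaled by TMM and tested with edgeR 4.0.16 (quasi-likelihood, robust) in R 4.3.3, with Benjamini-Hochberg adjustment. Standard errors were derived from the F statistic, and intervals are 95%. The common biological coefficient of variation was 7.03%. DESeq2 1.42.0 on counts and limma 3.58.1 on log2(TPM + 1) were alternatives, with others of scaling, filter, GC content, length, threshold and left-out libraries. The fits were tested on simulated data. Symbols matched 93.1% of the 60499 IDs, and gene positions, GC content and overlaps came from GENCODE 29.

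The members and lists were chosen with earlier results of these data known. All members are named. Values per well are given for members that were called, for those with an unadjusted p under 0.05 and no overlap of wells, and for HMGCS1, SQLE, INSIG1, SREBF1, SREBF2, FASN and SCD. Of the other lists, called genes are named, at most 10 per list, and MBTPS1, MBTPS2 and ABCG1 were named after their values were seen.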

Additional observations from a re-analysis of the deposited data

How the results depend on the processing

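The counts of called genes moved when unit and test were changed together and when single libraries were left out. With limma on log2(TPM + 1), on log2(TPM + 0.1) and with a trend, the calls over all genes were 33, 16 and 44 in place of 446. In each of these 3 settings 0 members were called lower, 1 other lipid gene (SOAT1) was called, and the acyl-CoA and glycerolipid lists had 0 calls. Over all genes, 718 were called with no filter on low counts, 933 with a correction for GC content, 221 at a threshold of 0.01 and 725 at 0.1. The GC correction called 1 member higher (INSIG1) and 1 gene of the sterol efflux list. At 0.01, 2 members were called lower, 1 other lipid gene was called, and the acyl-CoA and glycerolipid lists had 0 calls. FDPS had an adjusted p of 0.0616 with a correction for transcript length (edgeR).

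Leaving out each library in turn left the number of all genes called at 194 to 1179, with 0 to 8 members called lower, 0 to 1 called higher and 1 to 6 other lipid genes. The calls were 0 to 1 in the sterol efflux list, 1 to 2 in sterol storage, 0 to 2 in the acyl-CoA list and 0 to 2 in the glycerolipid list. The members median log2 fold change was between -0.0539 and -0.0029. Leaving out 1 library changed the sign of members that were not called. The ranges were -0.0151 to 0.1077 for HMGCS1, -0.084 to 0.0888 for MVK, -0.0267 to 0.1821 for IDI1, -0.0905 to 0.018 for SQLE, -0.0623 to 0.0125 for CYP51A1, -0.0273 to 0.094 for MSMO1, -0.0434 to 0.2197 for NSDHL and -0.0158 to 0.0592 for EBP. They were -0.0299 to 0.1013 for INSIG2, -0.0558 to 0.018 for STARD4, -0.0553 to 0.0007 for ACACA, -0.0843 to 0.0299 for ELOVL6, -0.0121 to 0.0255 for FADS1 and -0.0815 to 0.0238 for FADS2.

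The replicate number gave no pairing of wells. Wells with the same number had correlations of 0.047, -0.022 and 0.009 between their deviations from their group's mean (mean 0.011), and the others a mean of -0.006. With the replicate block, 646 genes were called over all genes and 5 members were called lower, FASN among them (edgeR adjusted p = 0.0117). With the block, the number of all genes called was 1082 under the GC correction and 720 under the length correction. The GC correction with the block called 1 member higher, 1 sterol efflux gene and 2 genes of the acyl-CoA list.

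Other sign changes were of members that were not called. On log2(TPM + 1), with or without the trend, and on log2(TPM + 0.1), the log2 fold changes were -0.0497 and -0.0506 for HMGCS1, -0.0844 and -0.1125 for MVK, 0.0292 and 0.0303 for SQLE and 0.0090 and 0.0099 for DHCR7. They were -0.0440 and -0.0462 for INSIG2, 0.1322 and 0.1359 for SCAP, 0.0377 and 0.0390 for ACACA and 0.0719 and 0.0728 for FADS2. With the GC correction, without and with the block, they were -0.0148 and -0.0150 for MSMO1, -0.0295 and -0.0288 for INSIG2 and 0.0029 and 0.0031 for FADS2. FADS1 was at -0.0054 with library size alone and at -0.0090 with no filter. What caused the changes was not tested. SREBF2, SCD, ACAT2, FDPS, FASN and INSIG1 kept their direction in all 14 alternatives and all 6 fits without a library. The widest 95% interval among the members was that of MVK, the lowest in TPM, at -0.27 to 0.29 on the log2 scale.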
